A study of Homo sapiens with 9 samples.

Results

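The 10 genes described here belong to canonical Wnt signalling and were followed through a knockdown of CHD9, a chromodomain helicase that remodels chromatin, in 22Rv1 cells. They were picked by name as a secreted inhibitor (DKK1), inhibitors and a scaffold inside or on the receiving cell (NKD1, RNF43, AXIN2), receptors for R-spondins (LGR4, LGR5), transcription factors that partner with beta-catenin (TCF7, TCF7L2, LEF1) and the cell surface target CD44. Each symbol matched 1 row of the deposited count table, so 10 of its 67071 genes are described, and all 10 were among the 16855 genes that passed the low-count filter. The cells are an established human line of prostate carcinoma that carries the androgen receptor, grown in serum. Hairpin 1 libraries (shRNA No.1 against CHD9), hairpin 2 libraries (shRNA No.2 against CHD9) and libraries of otherwise wild-type cells with a hairpin against GFP (shGFP) numbered 3 each. The hairpins' sequences, their vector and the time after knockdown are not stated in the sources at hand. Nothing says that the 3 libraries of a group came from separate cultures, so a p-value speaks only for the spread among libraries and that spread may be technical.

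In canonical Wnt signalling, a Wnt protein binds a Frizzled receptor with LRP5 or LRP6, the complex of APC, AXIN and GSK3 that degrades beta-catenin is held back, and beta-catenin enters the nucleus to join TCF and LEF factors. R-spondins bind LGR4 and LGR5 and clear the ligases RNF43 and ZNRF3, which otherwise remove Frizzled from the membrane. Several of the genes that the pathway switches on, AXIN2, NKD1, RNF43 and DKK1 among them, encode its own inhibitors and act as negative feedback. In bulk RNA, fewer cells that express a gene and less of its RNA per cell cannot be told apart.

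Libraries held 18911142 to 31968602 counts. CHD9 mRNA was at 14.8, 16.7 and 14.9 CPM (counts scaled to a common library total) with hairpin 1 and 18.4, 18.8 and 19.3 CPM with hairpin 2, against 22.8, 20.6 and 23.2 CPM in shGFP. It fell with each hairpin, to 0.695 (hairpin 1) and 0.847 (hairpin 2) times its shGFP level, so CHD9 mRNA remained in all 6 knockdown libraries (edgeR quasi-likelihood test, Benjamini-Hochberg adjusted p = 7.15e-08 and 0.00596). With shGFP replicate 3 left out, CHD9 no longer passed for hairpin 2 (edgeR adjusted p = 0.0542). All 10 prostate luminal markers were over 1 CPM in each group, with a summed level of 2464 to 2496 CPM with hairpin 1, 2402 to 2428 CPM with hairpin 2 and 2274 to 2300 CPM in shGFP. The summed level of 6 stromal markers was 11.1 to 12.5, 10.6 to 13.4 and 9 to 9.67 CPM in the same order, with 3 of the 6 over 1 CPM. Of those 6, DCN had no count with hairpin 1, and its total was 2 counts in each other group. COL1A1 rose by 0.55 and 0.49 and COL3A1 by 0.89 and 0.90 on the log2 scale with hairpin 1 and hairpin 2. LUM went the other way, with log2 fold changes of -3.99 and -3.87. It averaged 0.0603 CPM with hairpin 1, 0.0627 CPM with hairpin 2 and 0.983 CPM in shGFP, so the summed level does not stand for each marker. The 5 immune markers summed to at most 1.26 CPM and the 4 endothelial markers to at most 0.268 CPM in any library, and CD3E, CDH5 and KDR had no count in any library. The part of these luminal and stromal shifts in the results was not tested.

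With both hairpins DKK1 and LGR4 fell, and TCF7 and CD44 rose. DKK1 had the largest change of the 10, its level being 0.303 (hairpin 1) and 0.465 (hairpin 2) times that in shGFP. AXIN2 and LEF1 rose with hairpin 1, without a rise with hairpin 2 that passed the test, and RNF43 fell with hairpin 2. LGR5, TCF7L2 and NKD1 passed with neither hairpin.

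Averaged over both hairpins, 3 of the 10 genes rose, 3 fell and 4 did not pass, where 45.5% of all genes tested changed (edgeR quasi-likelihood test, Benjamini-Hochberg adjusted p under 0.05). The 6 of 10 called is near that background, and the median log2 fold change of 0.03 stood beside 0.00 over all genes. With hairpin 1, 4 rose and 2 fell, where 47.3% of all genes changed (23.9% higher and 23.4% lower). With hairpin 2, 2 rose and 3 fell, where 35.7% of all genes changed (17.2% higher and 18.5% lower). Called in the same direction with each hairpin were 4 of 10, against 26.8% of all genes, and 0 of 10 in opposite directions, against 0.86%. The same 4 genes had all 6 knockdown libraries beyond all 3 shGFP libraries, a separation that 31.7% of all genes showed. The 2 hairpin comparisons share their 3 shGFP libraries, so they do not repeat each other independently.

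**Figure D1:**
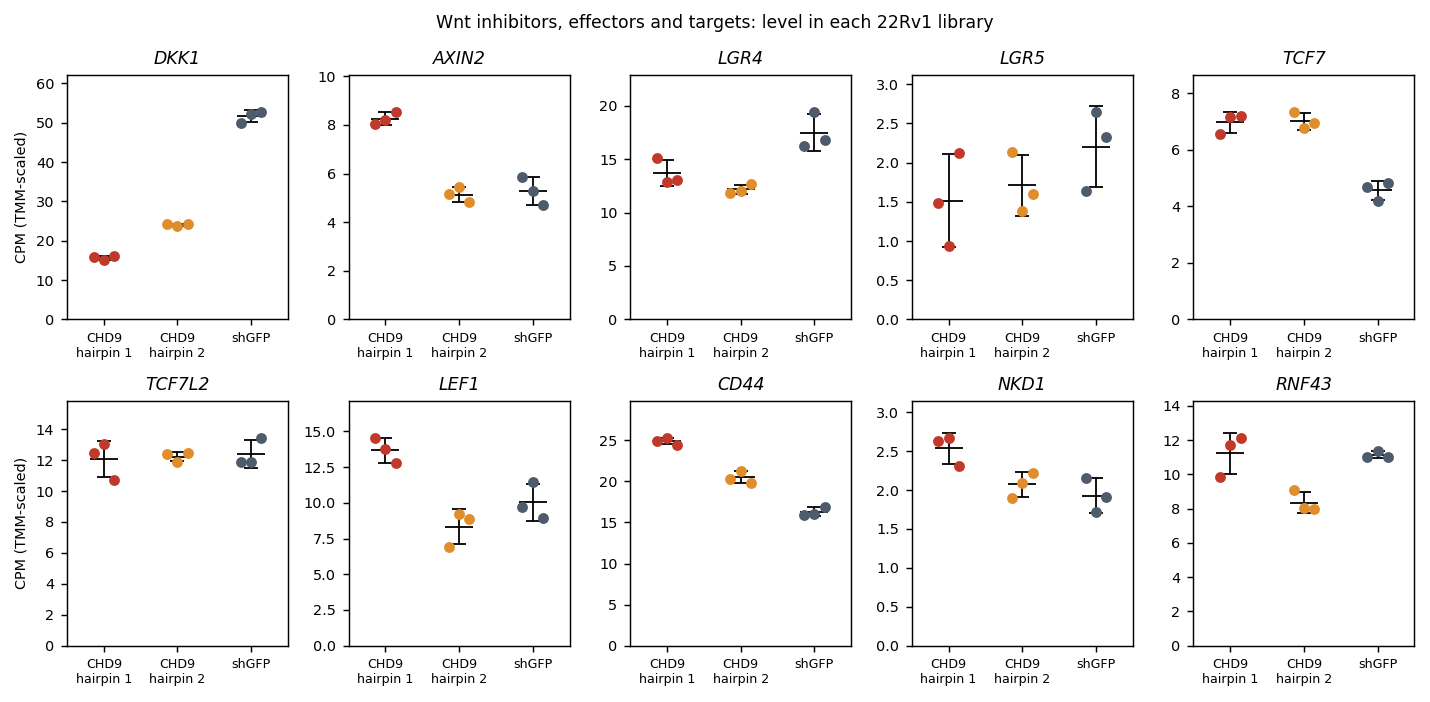
Level of each of the 10 genes in each library, in CPM on TMM-scaled library totals (y axis, from 0, one scale per gene), by group (x axis). Points are libraries, bars the mean and SD of 3. DKK1 lies at 15.1 to 16.1 CPM with hairpin 1 and 23.7 to 24.2 CPM with hairpin 2, below the 50 to 52.8 CPM of shGFP, while the groups of TCF7L2 overlap.

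The sequences just before the start sites of the 4 genes that moved the same way with each hairpin are shown because TCF and LEF factors, which bind DNA at motifs of this kind, are themselves among the 10 genes. Each run is the 250 bases before a RefSeq start (GRCh38.p14), 5′ to 3′ on the strand of the gene, and capitals mark a match to CTTTGAA or CTTTGAT or CTTTGTA or CTTTGTT on either strand. The windows are chr10:52314031-52314280 for DKK1 (plus strand), chr11:27472791-27473040 for LGR4 (minus strand), chr5:134115363-134115612 for the upstream and chr5:134123368-134123617 for the downstream start of TCF7 (plus strand), and chr11:35138921-35139170 for CD44 (plus strand).
DKK1: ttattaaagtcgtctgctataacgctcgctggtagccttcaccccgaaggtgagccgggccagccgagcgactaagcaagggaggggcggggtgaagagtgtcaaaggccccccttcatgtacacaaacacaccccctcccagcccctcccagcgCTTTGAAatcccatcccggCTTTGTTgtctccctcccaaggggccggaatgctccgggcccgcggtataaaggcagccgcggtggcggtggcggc
LGR4: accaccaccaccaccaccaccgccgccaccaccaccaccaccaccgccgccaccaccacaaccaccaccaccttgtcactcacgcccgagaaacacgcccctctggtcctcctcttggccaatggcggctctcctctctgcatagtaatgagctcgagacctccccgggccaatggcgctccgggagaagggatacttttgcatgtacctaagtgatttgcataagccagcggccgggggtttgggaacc
TCF7, upstream start: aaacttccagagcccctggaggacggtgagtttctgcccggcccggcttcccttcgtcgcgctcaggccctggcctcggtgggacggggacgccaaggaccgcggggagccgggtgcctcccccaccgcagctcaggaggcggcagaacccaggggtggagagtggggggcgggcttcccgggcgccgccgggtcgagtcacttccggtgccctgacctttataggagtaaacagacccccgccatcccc
TCF7, downstream start: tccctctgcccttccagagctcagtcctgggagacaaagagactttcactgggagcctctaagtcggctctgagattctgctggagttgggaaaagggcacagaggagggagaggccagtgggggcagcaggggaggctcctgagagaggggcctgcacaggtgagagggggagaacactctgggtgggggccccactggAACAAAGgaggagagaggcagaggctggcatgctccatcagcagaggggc
CD44: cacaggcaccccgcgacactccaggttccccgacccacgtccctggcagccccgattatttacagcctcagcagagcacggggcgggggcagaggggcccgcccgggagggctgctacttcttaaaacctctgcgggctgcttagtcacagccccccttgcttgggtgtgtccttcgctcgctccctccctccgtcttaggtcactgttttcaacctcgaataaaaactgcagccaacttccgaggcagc
In the DKK1 window CTTTGAA begins 95 bases and CTTTGTT 76 bases before the start, both on the strand of the gene. The downstream TCF7 window holds AACAAAG, which is CTTTGTT on the other strand, beginning 50 bases before the start, and the other 3 windows hold no match. Of 35114 such windows in the RefSeq table, 12% hold at least 1 match. Entries exist there for 7 of the 10 genes with 11 start sites, of which 3 hold a match, the remaining one being an internal start of TCF7L2. A match describes letters only and is not evidence of binding.

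DKK1 (ENSG00000107984.10, chromosome 10, 52314296 to 52318042, plus strand, GRCh38), the secreted protein that blocks the LRP5 and LRP6 co-receptors, was the member with the largest change. It had 320, 339 and 431 counts, or 15.9, 15.1 and 16.1 CPM, in hairpin 1 libraries. Hairpin 2 libraries had 610, 769 and 514 counts, or 24.2, 23.7 and 24.2 CPM, against 950, 1183 and 1380 counts, or 50, 52.2 and 52.8 CPM, in shGFP. The 3 groups did not overlap, and hairpin 1 libraries were lowest. The log2 fold change was -1.72 with hairpin 1 (SE 0.06, edgeR adjusted p = 2.54e-27) and -1.11 with hairpin 2 (SE 0.05, edgeR adjusted p = 2.70e-21). An antisense gene, PRKG1-AS1, overlaps 9.61% of the exonic length of DKK1 and had 19 to 35, 32 to 45 and 27 to 96 counts in hairpin 1, hairpin 2 and shGFP libraries, far fewer than DKK1.

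RNF43 (ENSG00000108375.12, chromosome 17, 58352500 to 58417595, minus strand), the membrane ubiquitin ligase that removes Frizzled receptors, had 9.86, 11.7 and 12.1 CPM with hairpin 1, 9.08, 8.02 and 7.97 CPM with hairpin 2, and 11.05, 11.39 and 11.01 CPM in shGFP. Hairpin 2 libraries lay below all others, and hairpin 1 libraries overlapped shGFP. The log2 fold change was -0.42 with hairpin 2 (SE 0.10, edgeR adjusted p = 0.000583) and 0.02 with hairpin 1 (SE 0.09, edgeR adjusted p = 0.891). The averaged change of -0.20 passed narrowly (edgeR adjusted p = 0.0463) and was lost in 10 of 17 alternatives, among them leaving out any of the 3 shGFP libraries (adjusted p of 0.083 to 0.134). RNF43 shares 57.6% of its exonic length with a same-strand gene, AC004687.2, that has 0 to 6 counts in a library, and 20.3% with the antisense gene TSPOAP1-AS1, at 44 to 69, 43 to 60 and 31 to 49 counts in hairpin 1, hairpin 2 and shGFP libraries. How reads in shared exons were assigned is not given in the sources used here, so its counts are uncertain.

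NKD1 (ENSG00000140807.7, chromosome 16, 50548330 to 50649249, plus strand), which binds Dishevelled and dampens the signal, was among the least abundant of the 10 genes. It had 53, 60 and 62 counts, or 2.63, 2.67 and 2.31 CPM, with hairpin 1 and 48, 68 and 47 counts, or 1.90, 2.10 and 2.22 CPM, with hairpin 2. In shGFP it had 41, 39 and 50 counts, or 2.16, 1.72 and 1.91 CPM. Hairpin 1 libraries lay above all others, yet the log2 fold change of 0.39 (95% interval -0.02 to 0.81) did not pass (edgeR adjusted p = 0.110), and that of hairpin 2 was 0.11 (95% interval -0.31 to 0.52).

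AXIN2 (ENSG00000168646.13, chromosome 17, 65528563 to 65561647, minus strand) encodes a scaffold of the beta-catenin destruction complex and is widely used as a readout of the pathway. It had 162, 185 and 229 counts, or 8.03, 8.22 and 8.54 CPM, in hairpin 1 libraries. With hairpin 2 it had 130, 176 and 102 counts, or 5.16, 5.43 and 4.81 CPM, against 111, 120 and 123 counts, or 5.84, 5.30 and 4.70 CPM, in shGFP. Hairpin 1 libraries stood above both other groups, which overlapped. AXIN2 rose 1.58-fold under hairpin 1, a log2 fold change of 0.66 (SE 0.12, edgeR adjusted p = 8.11e-06). With hairpin 2 the log2 fold change was -0.02 (95% interval -0.27 to 0.23, edgeR adjusted p = 0.916). The averaged change was 0.32 (edgeR adjusted p = 0.0123), and its call was lost without shGFP replicate 3 (0.23, edgeR adjusted p = 0.133). A same-strand gene, AC004805.1, shares 25.2% of the exonic length of AXIN2 and had 0 or 1 count in each library. As for RNF43, how reads in shared exons were assigned is not given, so the counts of AXIN2 are uncertain.

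LGR4 (ENSG00000205213.14, chromosome 11, 27365961 to 27472775, minus strand), a receptor for R-spondins, had 15.1, 12.8 and 13.1 CPM with hairpin 1 and 11.8, 12.03 and 12.6 CPM with hairpin 2, against 16.2, 19.4 and 16.8 CPM in shGFP. All 6 knockdown libraries were below the lowest shGFP library. LGR4 fell with both, at log2 fold changes of -0.36 for hairpin 1 (SE 0.08, 0.779-fold, edgeR adjusted p = 0.00037) and -0.53 for hairpin 2 (SE 0.08, 0.694-fold, edgeR adjusted p = 1.7e-06). LGR5 (ENSG00000139292.13, chromosome 12, 71439770 to 71586310, plus strand), its paralogue and a stem cell marker of the intestine, had 30, 21 and 57 counts with hairpin 1, 54, 45 and 34 with hairpin 2, and 31, 60 and 61 in shGFP. In CPM these were 1.49, 0.934 and 2.12 with hairpin 1, 2.14, 1.39 and 1.60 with hairpin 2, and 1.63, 2.65 and 2.33 in shGFP. The groups overlapped. Its log2 fold changes of -0.53 (95% interval -1.04 to -0.02) and -0.39 (95% interval -0.88 to 0.10) did not pass with hairpin 1 or hairpin 2 (edgeR adjusted p = 0.0800 and 0.222). The averaged value of -0.46 did not pass (edgeR adjusted p = 0.0738) but did without shGFP replicate 1, without hairpin 1 replicate 3 or without hairpin 2 replicate 1 (-0.62, -0.64 and -0.56), and the hairpin 1 value passed without shGFP replicate 1 or hairpin 1 replicate 3 (-0.69 and -0.89). The averaged interval of -0.89 to -0.03, like that of hairpin 1, leaves out 0, and it is after adjustment over all genes that LGR5 did not pass. The difference between the changes of LGR5 and LGR4 was not tested.

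TCF7 (ENSG00000081059.20, chromosome 5, 134114711 to 134151865, plus strand), which encodes the factor TCF1, had 6.54, 7.16 and 7.20 CPM with hairpin 1 and 7.34, 6.75 and 6.93 CPM with hairpin 2, against 4.68, 4.19 and 4.82 CPM in shGFP. All 6 knockdown libraries were above the highest shGFP library, and the hairpins overlapped. TCF7 rose 1.53-fold under each hairpin (log2 fold changes 0.61 and 0.61, SE 0.12 each, edgeR adjusted p = 4.57e-05 and 5.73e-05). SKP1, a gene on the opposite strand, overlaps 2.09% of the exonic length of TCF7 and had 2690 to 3534, 2888 to 3967 and 2633 to 3716 counts in hairpin 1, hairpin 2 and shGFP libraries. The strand setting of the counting is not given in the sources used here, and any share of SKP1 reads in the TCF7 counts was not tested.

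LEF1 (ENSG00000138795.10, chromosome 4, 108047545 to 108168956, minus strand), both a TCF family factor and a target of the pathway, had 293, 309 and 343 counts, or 14.5, 13.7 and 12.8 CPM, with hairpin 1. It had 175, 298 and 188 counts, or 6.94, 9.19 and 8.87 CPM, with hairpin 2, and 184, 260 and 234 counts, or 9.68, 11.5 and 8.95 CPM, in shGFP. Hairpin 1 libraries were highest, and hairpin 2 libraries overlapped shGFP at its low end. LEF1 rose with hairpin 1 (log2 fold change 0.45, SE 0.10, edgeR adjusted p = 0.000260). With hairpin 2 its log2 fold change was -0.26 (SE 0.11), just short of the threshold (edgeR adjusted p = 0.0514), and it passed in 6 of 18 alternatives with values of -0.35 to -0.27. The averaged value of 0.09 (edgeR adjusted p = 0.433) lies between the hairpins. TCF7L2 (ENSG00000148737.17, chromosome 10, 112950250 to 113167678, plus strand), which encodes the factor TCF4, had 12.4, 13.0 and 10.7 CPM with hairpin 1, 12.4, 11.9 and 12.4 CPM with hairpin 2, and 11.9, 11.9 and 13.4 CPM in shGFP. The 3 groups overlapped, and the averaged log2 fold change was -0.04 with a 95% interval of -0.19 to 0.12, or 0.874-fold to 1.08-fold.

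CD44 (ENSG00000026508.19, chromosome 11, 35138870 to 35232402, plus strand), the receptor for hyaluronan and a reported Wnt target in the intestine, had 24.9, 25.2 and 24.5 CPM with hairpin 1 and 20.3, 21.3 and 19.8 CPM with hairpin 2, against 15.9, 16.1 and 16.9 CPM in shGFP. The 3 groups did not overlap. CD44 rose 1.52-fold under hairpin 1, by 0.61 on the log2 scale (SE 0.07, edgeR adjusted p = 3.34e-10), and 1.26-fold under hairpin 2, by 0.33 (SE 0.07, edgeR adjusted p = 0.000135). CD44 is spliced into many isoforms, and gene counts do not separate them.

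**Figure D2:**
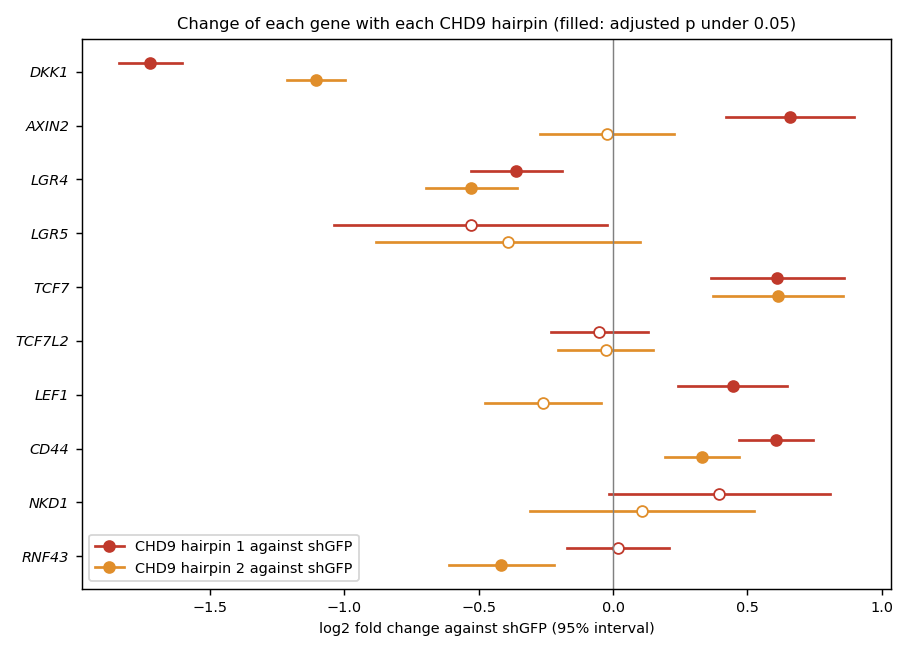
Log2 fold change against shGFP (x axis) of each of the 10 genes (y axis) with hairpin 1 and hairpin 2, with 95% intervals from the edgeR fit. Filled points passed at an adjusted p under 0.05. DKK1 is far left with both hairpins, TCF7 coincides at 0.61, and LEF1 lies at 0.45 with hairpin 1 and -0.26 with hairpin 2.

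The hairpins were then compared directly, since they are separate reagents against 1 gene. Between them 5 of the 10 genes differed, where 29.2% of all genes tested did (edgeR quasi-likelihood test, Benjamini-Hochberg adjusted p under 0.05). DKK1 was lower with hairpin 1 than with hairpin 2 (log2 difference -0.62, SE 0.06, edgeR adjusted p = 1.47e-10). CHD9 was also lower with hairpin 1 (-0.28, SE 0.07, edgeR adjusted p = 0.0024). That difference of CHD9 was lost after a correction for the GC content and length of genes (-0.18, edgeR adjusted p = 0.0574). Not all of the 10 genes had this order, since RNF43 fell only with hairpin 2 and TCF7 rose alike with both. Any relation to the level of CHD9 was not tested. The other 4 of the 5 differing genes were higher with hairpin 1, and LEF1 (0.71, SE 0.10), AXIN2 (0.68, SE 0.12) and RNF43 (0.44, SE 0.10) had larger differences than CD44 (0.28, SE 0.06). Their edgeR adjusted p ranged from 3.47e-07 (LEF1) to 0.000753 (CD44). Libraries of the 2 hairpins did not overlap in CPM for 7 of the 10 genes, against 39.6% of all genes tested. For TCF7 the difference was -0.00 with a 95% interval of -0.23 to 0.22, for TCF7L2 -0.02 (-0.20 to 0.15), for LGR4 0.17 (-0.01 to 0.34), for NKD1 0.29 (-0.11 to 0.69) and for LGR5 -0.14 (-0.66 to 0.38), and none of these 5 passed (edgeR adjusted p = 0.150 or more).

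**Figure D3:**
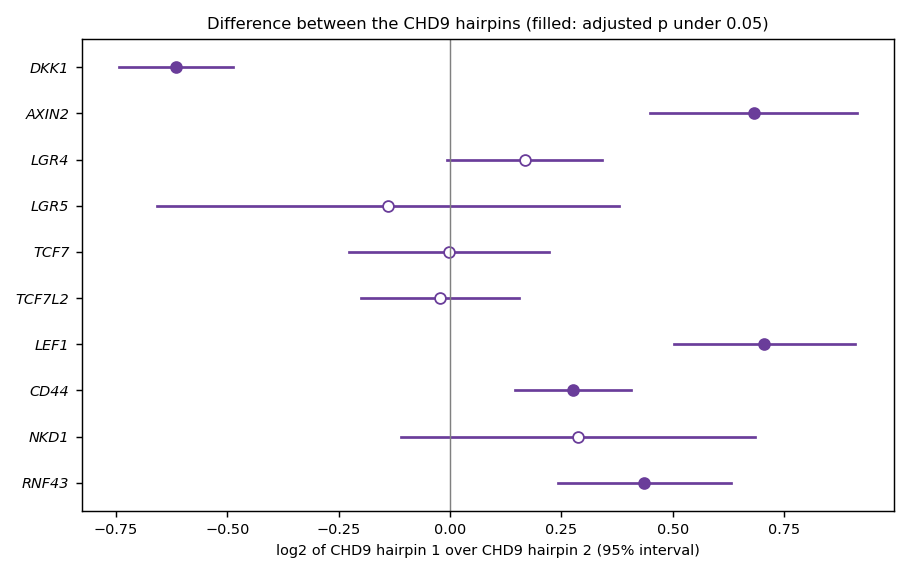
Log2 difference of hairpin 1 over hairpin 2 (x axis) for each of the 10 genes (y axis), with 95% intervals from the edgeR fit. Filled points passed at an adjusted p under 0.05. DKK1 is the filled point left of 0, and AXIN2, LEF1, CD44 and RNF43 are the filled points right of 0.

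Levels can be set beside each other only per length, as CPM per kilobase of annotated exon. That length counts every annotated exon, 17425 bases for NKD1 and 5251 for LGR5, and which exons these cells use was not tested. The order is therefore approximate, and for RNF43 and AXIN2 the exons shared with other genes add to the uncertainty. In shGFP, DKK1 was highest at 23.4 ± 0.667, followed by LGR4 at 2.76 ± 0.270, LEF1 at 1.87 ± 0.242, TCF7L2 at 1.84 ± 0.132, CD44 at 1.63 ± 0.0523 and RNF43 at 1.49 ± 0.0273 CPM per kilobase (SD, n = 3 each). AXIN2 followed at 1.01 ± 0.109, TCF7 at 0.454 ± 0.0328, LGR5 at 0.420 ± 0.0991 and NKD1 at 0.111 ± 0.0126 CPM per kilobase (SD, n = 3 each). LEF1 and TCF7L2 did not differ beyond their spread, nor did TCF7 and LGR5. Among the TCF and LEF genes, hairpin 1 put LEF1 first at 2.55 ± 0.162 CPM per kilobase, before TCF7L2 at 1.79 ± 0.177 (SD, n = 3 each). With hairpin 2 TCF7L2 was at 1.82 ± 0.0462 and LEF1 at 1.55 ± 0.227 CPM per kilobase (SD, n = 3 each). DKK1 stayed the highest of the 10 in each group, at 7.10 ± 0.239 with hairpin 1 and 10.9 ± 0.133 CPM per kilobase with hairpin 2 (SD, n = 3 each).

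The rest of the pathway was taken from lists by role. Without the 10 genes they hold 106 others, of which 74 were tested, and averaged over both hairpins 37 of these rose, 11 fell and 26 did not pass. The median log2 fold change of the 74 was 0.10, beside 0.00 over all genes, and 64.9% of them were called, beside 45.5% of all genes (22.3% higher and 23.2% lower). The lists were chosen with earlier results of these data known. Calls included small changes of abundant genes, such as CTBP1 (1.043-fold, mean 228 CPM) and EPHB3 (1.045-fold, mean 717 CPM). Both were picked after their values were seen. Whether abundance raised the share called was not tested. With the 10 genes included, 54 were called, and 48 after a correction for GC content and length. With hairpin 1, 40 of the 74 rose and 11 fell, where 23.9% of all genes were higher and 23.4% lower. Under hairpin 2, 27 rose and 13 fell, where 17.2% of all genes were higher and 18.5% lower. Genes may stand in more than 1 list. Where no hairpin is named, the counts by role and the changes of single genes below are averages over both hairpins.

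Of 14 tested genes for ligands and their secretion, 7 rose, 1 fell and 6 did not pass. The share called was 57.1%, beside 45.5% of all genes. RSPO3, an R-spondin and so a ligand of LGR4 and LGR5, averaged 13.8 ± 0.658 CPM with hairpin 1 and 8.95 ± 0.705 CPM with hairpin 2, against 5.00 ± 0.261 CPM in shGFP (SD, n = 3 each). Its averaged log2 fold change was 1.16 (SE 0.10), in the direction opposite to LGR4. WNT3A, a canonical ligand, averaged 9.86 ± 0.337, 7.51 ± 1.22 and 4.53 ± 0.417 CPM with hairpin 1, with hairpin 2 and in shGFP (SD, n = 3 each), a log2 fold change of 0.91 (SE 0.11). WNT11 rose by 0.71 at 1.30 CPM, a call lost without shGFP replicate 1 or 3 (edgeR adjusted p = 0.117 and 0.0822). Both WNT3A and RSPO3 passed with each hairpin.

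Of 13 tested receptors other than LGR4 and LGR5, 6 rose, 4 fell and 3 did not pass. The share called was 76.9%, beside 45.5% of all genes. The Frizzled gene FZD4 rose by 0.52 (SE 0.03), the co-receptor gene PTK7 rose by 0.52 (SE 0.06), and FZD6 fell by 0.44 (SE 0.04) on the log2 scale. FZD6 was at -0.61 with hairpin 1 and -0.27 with hairpin 2 (edgeR adjusted p of the difference = 8.41e-08). LRP6, a target of DKK1 protein, is listed at 0 in all 9 libraries, so the deposited counts give no level for it. Of 17 listed inhibitors other than DKK1 and RNF43, 11 had too few counts to be tested. Of the 6 tested, 4 rose and 2 did not pass, where 22.3% of all genes were higher and 23.2% lower. KREMEN2 and KREMEN1, which encode co-receptors of DKK1 protein, rose by 0.83 (SE 0.04) and 0.43 (SE 0.07), and NOTUM, an enzyme that strips lipid from Wnt proteins, rose by 0.48 (SE 0.11). NOTUM was at 0.30 with hairpin 1 (edgeR adjusted p = 0.0465) and 0.67 with hairpin 2 (edgeR adjusted p = 1.28e-05). KREMEN2 averaged 86.4 ± 2.17 CPM with hairpin 1 and 74.8 ± 2.99 CPM with hairpin 2, against 45.04 ± 2.505 CPM in shGFP (SD, n = 3 each). Among DKK genes, DKK2, DKK3 and DKK4 had too few counts to be tested.

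Of 17 tested genes of the destruction complex and Dishevelled other than AXIN2 and NKD1, 7 rose, 2 fell and 8 did not pass. The share called was 52.9%, beside 45.5% of all genes. With hairpin 1, 9 rose and 2 fell, so that 64.7% were called, beside 47.3% of all genes. With hairpin 2, 3 rose, 2 fell and 12 did not pass, so that 29.4% were called, near the 35.7% of all genes. Averaged over both hairpins, DACT3, a Dishevelled antagonist, rose by 0.72 (SE 0.14) and APC2 by 0.65 (SE 0.14) on the log2 scale. TNKS2, a tankyrase that marks AXIN for degradation, fell by 0.47 (SE 0.04) in that average. TNKS2 was at -0.71 with hairpin 1 and -0.24 with hairpin 2 (edgeR adjusted p of the difference = 2.44e-11). APC2 passed with hairpin 1 and not with hairpin 2 (log2 fold changes 0.91 and 0.39). Of 16 tested nuclear genes other than the 3 described above, 9 rose, 1 fell and 6 did not pass. The share called was 62.5%, beside 45.5% of all genes. By hairpin, 11 rose and 1 fell with hairpin 1, where 23.9% of all genes were higher and 23.4% lower. Under hairpin 2, 5 rose and 4 fell, where 17.2% of all genes were higher and 18.5% lower. Averaged over both hairpins, the corepressor genes TLE4 and TLE2 rose by 1.21 (SE 0.10) and 0.63 (SE 0.05). TLE4 was at 1.58 with hairpin 1 and 0.84 with hairpin 2 (edgeR adjusted p of the difference = 6.03e-08). TCF7L1, which encodes a TCF family member known as a repressor, averaged 4.38 ± 0.191, 4.17 ± 0.571 and 2.54 ± 0.492 CPM with hairpin 1, with hairpin 2 and in shGFP (SD, n = 3 each) and rose by 0.72 (SE 0.15). CTNNB1, the beta-catenin gene, chosen after its values were seen, averaged 615 ± 10.4 CPM with hairpin 1, 578 ± 15.6 CPM with hairpin 2 and 605 ± 11.03 CPM in shGFP (SD, n = 3 each), an averaged log2 fold change of -0.02 (SE 0.02) that did not pass. The averaged value joins unequal hairpins, since CTNNB1 was at 0.03 with hairpin 1 (edgeR adjusted p = 0.419) and fell by 0.07 with hairpin 2 (SE 0.02, edgeR adjusted p = 0.0278), a difference between hairpins of 0.09 (edgeR adjusted p = 0.00287).

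Of 11 tested target genes outside the 10, 5 rose, 3 fell and 3 did not pass. The share called was 72.7%, and 68.4% with the members included, beside 45.5% of all genes. SOX9, a transcription factor gene of stem and progenitor cells, averaged 11.3 ± 1.23 CPM with hairpin 1 and 16.6 ± 0.352 CPM with hairpin 2, against 38.9 ± 0.833 CPM in shGFP (SD, n = 3 each), a log2 fold change of -1.50 (SE 0.06) beside -1.41 (SE 0.05) for DKK1. CCND1, which encodes cyclin D1, fell by 0.41 on the log2 scale (SE 0.02). NOTUM is on this list too. With the members included, 8 of 19 tested target genes rose, 5 fell and 6 did not pass, so the targets did not move one way. The 17 pathway genes named by rule had an edgeR adjusted p of 0.0184 (WNT11) or smaller in the averaged comparison, and their direction was the same in each alternative run. A correction for the GC content and length of genes lowered the size of 3 of them by over 1.5 times, to 0.40 for APC2, 0.32 for NOTUM and -0.29 for FZD6, which still passed.

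**Figure D4:**
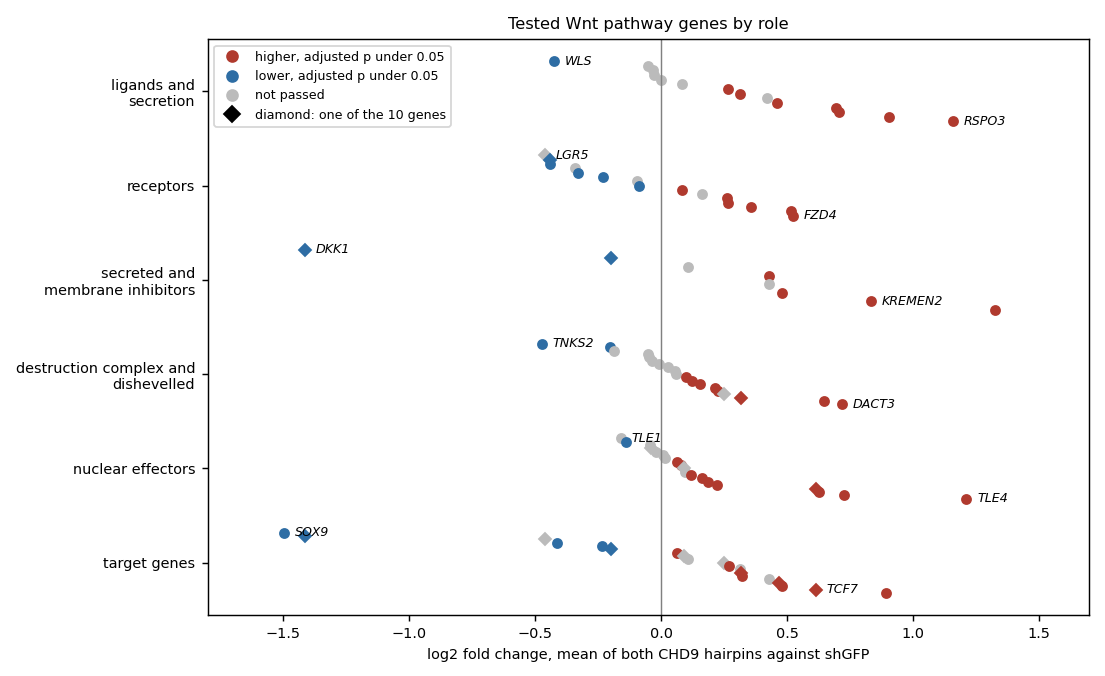
Averaged log2 fold change of both hairpins against shGFP (x axis) for each tested gene of the Wnt pathway, by role (y axis), with red for higher, blue for lower and grey for not passed. Diamonds are the 10 genes, and the outermost genes of at least 1 CPM are labelled. DKK1 at -1.41 and SOX9 at -1.50 lie far from the other genes that fell, and RSPO3 at 1.16 and TLE4 at 1.21 are the labelled genes farthest to the right.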

How the data were processed

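RNA was measured in 9 libraries prepared from polyA RNA with a directional kit, per the labels' protocols. Trim Galore, STAR, DESeq2 and hg38 are named in the submitters' processing notes, with no version or role. Which program counted reads, with which strand setting and annotation, is not given in the sources used here. Raw counts per gene were deposited by the authors in 1 column a library. Symbols came from a table of gene names and GENCODE 29, which gave 60704 of 67071 identifiers a symbol, and positions and exonic lengths from GENCODE 29 on GRCh38. Genes were kept by filterByExpr with a minimum count of 10. A model with 1 mean a group was fitted to all 9 libraries with edgeR 4.0.16 (R 4.3.3) after TMM scaling, and quasi-likelihood tests were adjusted by Benjamini-Hochberg over all genes tested and called under 0.05. The test was tried on simulated counts, with few genes changed and the same spread beyond counting noise for every gene. These data differ in both, so the trial does not show how often the test errs here. SDs are between 3 libraries. Exonic length is the union of annotated exons. The genes, lists and tests were chosen with earlier results of these data known. Pathway genes are named if they are among the 3 with the largest averaged change on their list, called, and of at least 1 CPM. Alternatives were DESeq2 size factors, the DESeq2 1.42.0 Wald test, other filters, an adjusted p under 0.01, fits on the compared groups, a replicate block, a GC and length correction (values known for 97.8% of tested genes), and leaving out each library. Within groups, pairs of libraries gave a chi-square of 1.72 to 2.84 a degree of freedom, above counting noise. Each library was kept as a replicate, but this spread does not show that they came from separate cultures.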

Additional observations from a re-analysis of the deposited data

Results flagged for a closer look

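Levels differed between the 2 CHD9 hairpins for 5 of the 10 genes, by the edgeR test of the difference itself, where 29.2% of all genes tested differed. On the log2 scale of hairpin 1 over hairpin 2 the values were -0.62 for DKK1, 0.68 for AXIN2, 0.71 for LEF1, 0.28 for CD44 and 0.44 for RNF43. Each of the 5 calls held in all 18 alternatives run, with an edgeR or DESeq2 adjusted p of at most 0.00929. In hairpin 1, hairpin 2 and shGFP libraries, AXIN2 averaged 8.26, 5.13 and 5.28 CPM, LEF1 13.7, 8.33 and 10.03 CPM, and RNF43 11.2, 8.36 and 11.15 CPM. CHD9 averaged 15.4, 18.8 and 22.2 CPM in the same order. What separates the hairpins was not tested.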

How the results depend on the processing

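Of the 40 values of the 10 genes over 4 comparisons, 27 kept their direction and their side of the threshold in every alternative run, and the number of the 10 called stayed within 4 to 7 (averaged), 6 to 7 (hairpin 1), 5 to 6 (hairpin 2) and 5 (between hairpins). The fall of CHD9 with hairpin 2 was lost without shGFP replicate 3 (edgeR adjusted p = 0.0542), with log2 values from -0.29 to -0.20 as each library was left out. The difference of CHD9 between hairpins was lost when GC and length were corrected for, at -0.18 (edgeR adjusted p = 0.0574), and with the replicate block besides, at -0.18 (edgeR adjusted p = 0.0644). The cause was not tested. Several log2 values that did not pass changed sign as libraries were left out, within the ranges -0.0719 to 0.0276 for TCF7L2 averaged, -0.11 to 0.0357 with hairpin 1, -0.0606 to 0.039 with hairpin 2, -0.0831 to 0.0626 between hairpins, -0.0405 to 0.0983 for RNF43 with hairpin 1, -0.106 to 0.0494 for AXIN2 with hairpin 2, -0.499 to 0.113 for LGR5 between hairpins and -0.0329 to 0.0318 for TCF7 between hairpins. RNF43 with hairpin 1 also changed sign under the GC and length correction, at -0.0351, and with the block besides, at -0.0356. The replicate numbers did not pair the libraries, since deviations of same-numbered libraries correlated by -0.02 to 0.04 and not every library correlated best with its own number. With the replicate block, 5 of the 10 and 7669 of all genes were called in the averaged comparison, where RNF43 was no longer called (-0.20, edgeR adjusted p = 0.0527), and LEF1 was called with hairpin 2 (-0.27, edgeR adjusted p = 0.0393). A fit on the compared groups alone gives no separate value for the averaged comparison, which uses all of them. Over the pathway lists, 41 to 57 genes were called in the averaged comparison under the alternatives, against 54. LGR5 and NKD1 had the lowest counts of the 10, at 21 to 68 a library, and for LGR5 the libraries differed by more than counting error, since its Poisson intervals in hairpin 1 replicates 2 and 3, 0.578 to 1.43 and 1.61 to 2.75 CPM, do not overlap.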
